A study of Homo sapiens with 12 samples.

Results

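Chromatin immunoprecipitation with sequencing (ChIP-seq) intervals on the human decoy sequence, named hs37d5, were examined in HepG2 and Huh7 cells. They were all intervals of the 4 deposited narrowPeak lists whose sequence name is hs37d5, which gave 16603 of the 164693 intervals in all. HepG2 and Huh7 are cell lines derived from human liver tumours. The anti-HA lists came from stably transfected HepG2 and Huh7 cells that carried HOXA13 with an HA tag, precipitated with an antibody to the tag. The anti-HOXA13 lists came from untagged HepG2 and Huh7 cells, precipitated with an antibody to HOXA13 itself. Each list had been called on 1 ChIP library against the input chromatin of the same cells, with no replicate of any condition; no difference between lists was checked against replicates, and no test between conditions was made. The 4 IgG libraries among the 12 were not analysed here. What promoter drove the transgene, and whether the tagged cells were a clone or a pool, is not stated in the sources used here. The tag and the antibody changed together, so an effect of the tagged protein and an effect of the antibody cannot be told apart.

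HOXA13 is a homeodomain transcription factor encoded at the 5′ end of the HOXA cluster and is known for its part in patterning the distal limb and the genitourinary tract. The decoy is a string of human sequence that is missing from the GRCh37 chromosomes, joined end to end and added to the reference so that reads from it are not placed on the chromosomes by mistake. Much of it is satellite DNA and other repeats of centromeres and heterochromatin, sequence of which a genome can hold more copies than the reference, so that input reads can pile up on it.

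All 4 lists held more intervals per megabase on the decoy than on chromosomes 1 to 22, X and Y as a whole, and HepG2 held many more decoy intervals than Huh7 with either antibody. The decoy carried 5272 of 40657 intervals in HepG2 anti-HA, which is 12.97% with a 95% interval of 12.6 to 13.3%. HepG2 anti-HOXA13 had 9857 of 83156 (11.9%, 11.6 to 12.1%). Huh7 anti-HA had 1218 of 30170 (4.04%, 3.82 to 4.27%), and Huh7 anti-HOXA13 had 256 of 10710 (2.39%, 2.11 to 2.70%). These and the following intervals are exact Clopper-Pearson binomial intervals and cover counting error only. Intervals of 1 list share a library and are not replicates.

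The outermost intervals start at decoy 73635 and end at 35466120. The length of the decoy was taken from position 1 to that end, which is 35.5 Mb or 1.13% of the length examined. HepG2 anti-HA had 149 intervals per Mb there against 11.3 per Mb on the chromosomes, a ratio of 13.2. In HepG2 anti-HOXA13 the densities were 278 per Mb on the decoy against 23.3 per Mb on the chromosomes, a ratio of 11.9. The ratio was 3.69 in Huh7 anti-HA, from 34.3 per Mb on the decoy against 9.31 per Mb on the chromosomes. It was 2.14 in Huh7 anti-HOXA13, from 7.22 per Mb on the decoy against 3.37 per Mb on the chromosomes. The decoy was denser than the densest chromosome in 3 lists: by 4.09 times over chromosome 20 for HepG2 anti-HA, by 2.45 times over chromosome 20 for HepG2 anti-HOXA13 and by 2.52 times over chromosome 7 for Huh7 anti-HA. In Huh7 anti-HOXA13 it reached 0.690 of the density of chromosome 19.

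Over all intervals of the lists, the lines differed in number on the chromosomes too, but by less than on the decoy. HepG2 had 4.33 times as many decoy intervals as Huh7 with anti-HA, against 1.21 times on the chromosomes. With anti-HOXA13 it had 38.5 times as many on the decoy, against 6.91 times on the chromosomes. The antibodies ordered differently in the 2 lines: the ratio of anti-HA to anti-HOXA13 decoy intervals was 0.535 in HepG2 (0.484 on the chromosomes) and 4.76 in Huh7 (2.77 on the chromosomes). The lists are limited at p of 0.01 and not on the q value, which is the p value adjusted for the whole genome. Among intervals with q of 0.05 or better the decoy share was 17.9% for HepG2 anti-HA, 43.6% for HepG2 anti-HOXA13, 23.9% for Huh7 anti-HA and 3.93% for Huh7 anti-HOXA13. At that limit the comparison of the lines turned for anti-HA: HepG2 had 6.40 times as many intervals as Huh7 on the decoy, against 9.28 times on the chromosomes. For anti-HOXA13 it was 154.3 times on the decoy against 7.64 times on the chromosomes.

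At bins of 100 kb, fewer bins were empty in the HepG2 lists than in the Huh7 lists, and the densest bins held a larger share of the Huh7 intervals. Of 355 bins of 100 kb, 75 held no interval for HepG2 anti-HA, 16 for HepG2 anti-HOXA13, 126 for Huh7 anti-HA and 217 for Huh7 anti-HOXA13. In 7 bins no list had an interval, and in 113 bins all 4 had at least 1. The longest stretch without an interval in any list, decoy 18060061 to 18370802, measured 310742 bp. The median bin held 5 intervals for HepG2 anti-HA, 17 for HepG2 anti-HOXA13, 1 for Huh7 anti-HA and 0 for Huh7 anti-HOXA13. The means were 14.9, 27.8, 3.43 and 0.721 in the same list order. A list with fewer intervals leaves more bins empty and puts a larger share in its densest bins by counting alone. These values therefore do not separate the line from the length of the list. The 36 densest bins of each list held 39.0% of the HepG2 anti-HA intervals, 31.3% of the HepG2 anti-HOXA13 intervals, 50.2% of the Huh7 anti-HA intervals and 48.4% of the Huh7 anti-HOXA13 intervals. With bins of 1 Mb the densest bins, again about 10% of all, held 30.3%, 26.6%, 29.97% and 27.7% in the same list order, so the larger share in Huh7 was not seen at that width.

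Counts per bin followed each other more closely between the HepG2 lists than between the Huh7 lists. Over the 355 bins, the counts of HepG2 anti-HA and HepG2 anti-HOXA13 had a Pearson r of 0.94 and a Spearman rho of 0.92. Between HepG2 anti-HA and Huh7 anti-HA r was 0.66 and rho 0.69, and between HepG2 anti-HOXA13 and Huh7 anti-HOXA13 r was 0.53 and rho 0.46. Huh7 anti-HA and Huh7 anti-HOXA13 had an r of 0.30 and a rho of 0.45. Huh7 anti-HOXA13 had a mean of 0.721 intervals per bin. Counts that small lower a correlation and the number of densest bins in common, and whether the lines differ beyond this was not tested. These correlations describe bins that share their sequence content between lists, and the 2 lists of a line come from cells of the same origin. The number of densest bins in common, out of 36, was 30 for the HepG2 lists, 17 for the anti-HA lists, 14 for the anti-HOXA13 lists and 11 for the Huh7 lists.

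The densest bins differed in how much pileup was expected there from input. Pileup is the number of sequenced fragments over a base. MACS2, the peak caller, sets the ChIP pileup at the summit, the highest point of an interval, against the pileup expected from input, and the deposited fold is the ratio of the 2 with 1 added to each. The expected pileup is given here as a multiple of the lowest level in the list, called background. In the bin at decoy 4400001 to 4500000 there were 73 HepG2 anti-HA, 78 HepG2 anti-HOXA13, 47 Huh7 anti-HA and 0 Huh7 anti-HOXA13 intervals, and the median expected pileup was 23.5, 23.4 and 45.2 times background in the 3 lists that had any. The bin at 1400001 to 1500000 had 64, 67, 56 and 0 intervals in the same list order. Other bins were dense in HepG2 and nearly empty in Huh7. Decoy 27300001 to 27400000 had 39 HepG2 anti-HA, 106 HepG2 anti-HOXA13, 5 Huh7 anti-HA and 3 Huh7 anti-HOXA13 intervals, with a median expected pileup of 1.85 and 1.46 times background in HepG2 anti-HA and HepG2 anti-HOXA13. Decoy 22000001 to 22100000 had 51, 102, 2 and 1 intervals in that order, with 2.28 and 1.52 times background in the HepG2 lists.

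Huh7 anti-HOXA13, the shortest list, had its densest bin at decoy 4800001 to 4900000 with 6 intervals, where HepG2 anti-HA had 66, HepG2 anti-HOXA13 had 94 and Huh7 anti-HA had 11. A bin at 11800001 to 11900000 held 4 Huh7 anti-HOXA13 intervals and none of any other list. At 200001 to 300000, Huh7 anti-HOXA13 had 4 intervals where HepG2 anti-HA had 22, HepG2 anti-HOXA13 had 66 and Huh7 anti-HA had 0.

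Neighbouring decoy intervals stood close enough to form clusters in 3 of the 4 lists. A cluster was a run of at least 5 intervals with gaps of up to 1 kb. HepG2 anti-HA had 276 clusters with 40.2% (38.9 to 41.5%) of its decoy intervals, HepG2 anti-HOXA13 had 630 with 56.1% (55.1 to 57.1%), Huh7 anti-HA had 37 with 20.3% (18.1 to 22.7%), and Huh7 anti-HOXA13 had 0, which allows a share of up to 1.17%. On the chromosomes, the same rule put 1.09% of HepG2 anti-HA, 2.17% of HepG2 anti-HOXA13, 0.316% of Huh7 anti-HA and 0.0480% of Huh7 anti-HOXA13 intervals in clusters. The median gap between neighbours was 741 bp for HepG2 anti-HA, 534 bp for HepG2 anti-HOXA13, 2567 bp for Huh7 anti-HA and 48499 bp for Huh7 anti-HOXA13. With gaps of up to 500 bp the clustered share was 17.2% for HepG2 anti-HA, 28.0% for HepG2 anti-HOXA13 and 7.31% for Huh7 anti-HA; with gaps of up to 5 kb it was 83.1% for HepG2 anti-HA, 88.4% for HepG2 anti-HOXA13 and 43.3% for Huh7 anti-HA.

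The longest cluster, decoy 4399347 to 4451991, was a run of intervals at nearly the same places in 3 lists over 52.6 kb. It held 74 HepG2 anti-HA, 74 HepG2 anti-HOXA13, 47 Huh7 anti-HA and 0 Huh7 anti-HOXA13 intervals. All 74 HepG2 anti-HA intervals overlapped a HepG2 anti-HOXA13 interval, with summits a median of 27 bp apart, and all 47 Huh7 anti-HA intervals overlapped a HepG2 anti-HA interval. Folds were low and even: the median was 1.91 for HepG2 anti-HA (range 1.55 to 2.54), 2.22 for HepG2 anti-HOXA13 (1.82 to 3.10) and 1.33 for Huh7 anti-HA (1.24 to 2.38). Summits followed each other at a median spacing of 651 bp for HepG2 anti-HA, 654 bp for HepG2 anti-HOXA13 and 833 bp for Huh7 anti-HA.

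The next cluster, decoy 1431922 to 1473906, had 58 HepG2 anti-HA, 58 HepG2 anti-HOXA13, 50 Huh7 anti-HA and 0 Huh7 anti-HOXA13 intervals over 42.0 kb. The median fold there was 1.87 for HepG2 anti-HA, 2.14 for HepG2 anti-HOXA13 and 1.45 for Huh7 anti-HA, and summits of the HepG2 lists lay a median of 17.5 bp apart. Another cluster, decoy 30617239 to 30632471, was found in HepG2 alone, with 23 anti-HA and 22 anti-HOXA13 intervals and 0 of either Huh7 list. Its median expected pileup was 3.71 times background in HepG2 anti-HA and 3.65 times in HepG2 anti-HOXA13, and its median fold was 2.96 and 4.01 in that order. The first pair of clusters combined high input with low fold, and the cluster in HepG2 alone had lower input and higher fold. Expected pileup divides the fold, and the ChIP pileup of HepG2 anti-HA, HepG2 anti-HOXA13 and Huh7 anti-HA ran up to limits of 270, 206 and 228, described below. The median ChIP pileup was 121, 100.5 and 159 in the longest cluster and 221, 174.5 and 187.5 in the next. What part of the contrast goes with input or with these limits was not tested.

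Decoy intervals stood on much more input than chromosome intervals. An interval has raised input here where the expected pileup at its summit is over 3 times background. In HepG2 anti-HA 60.7% (59.4 to 62.0%) of decoy intervals had raised input, against 17.3% on the chromosomes. The share was 39.2% (38.2 to 40.2%) of decoy intervals against 1.82% on the chromosomes in HepG2 anti-HOXA13. Huh7 anti-HA had raised input at 80.8% (78.5 to 83.0%) of decoy intervals against 8.13% on the chromosomes, and Huh7 anti-HOXA13 at 57.0% (50.7 to 63.2%) against 8.83%. The median expected pileup on the decoy was 4.12 times background for HepG2 anti-HA, 2.13 times for HepG2 anti-HOXA13, 25.4 times for Huh7 anti-HA and 3.84 times for Huh7 anti-HOXA13, whereas on the chromosomes it was 1.44, 1.00, 1.30 and 1.29 times in the same list order. Without intervals of raised input, the decoy share of the list was 6.65% for HepG2 anti-HA and 7.72% for HepG2 anti-HOXA13. For Huh7 anti-HA it was 0.875%, and for Huh7 anti-HOXA13 1.14%. The decoy's 1.13% of length still includes its stretches of raised input, so these shares cannot be measured against it.

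Fold on the decoy was modest in all 4 lists. The median was 2.49 in HepG2 anti-HA, against 2.83 on the chromosomes, and 3.14 in HepG2 anti-HOXA13, against 2.84 on the chromosomes. In Huh7 anti-HA it was 1.72 on the decoy against 2.57 on the chromosomes, and in Huh7 anti-HOXA13 it was 2.22 against 2.69. HepG2 anti-HOXA13 was therefore the list whose median was higher on the decoy. The highest decoy fold was 6.33 for HepG2 anti-HA, 10.9 for HepG2 anti-HOXA13, 4.30 for Huh7 anti-HA and 4.55 for Huh7 anti-HOXA13, below the highest chromosome fold of 41.4, 22.9, 12.9 and 13.7 in the same list order. At least 5-fold were 22 decoy intervals (0.417%) in HepG2 anti-HA, against 10.9% on the chromosomes, and 638 (6.47%) in HepG2 anti-HOXA13, against 0.124% on the chromosomes. Neither Huh7 list had a decoy interval of 5-fold, which allows up to 0.246% in Huh7 anti-HA and 1.17% in Huh7 anti-HOXA13, while the chromosome shares were 0.0764% and 1.98%.

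Over all intervals, strong significance was more frequent on the decoy than on the chromosomes in 3 lists and not in Huh7 anti-HOXA13. Strong intervals are those with a −log10 q of 5 or more. HepG2 anti-HA had 1802 of them on the decoy (34.2%, 32.9 to 35.5%), against 21.6% on the chromosomes. HepG2 anti-HOXA13 had 3144 (31.9%, 31.0 to 32.8%) against 0.753%, Huh7 anti-HA had 170 (14.0%, 12.1 to 16.0%) against 0.399%, and Huh7 anti-HOXA13 had 4 (1.56%, 0.427 to 3.95%) against 2.55%. The decoy thus carried 79.98% of the 3931 strong intervals of HepG2 anti-HOXA13 and 55.9% of the 304 of Huh7 anti-HA, but 19.0% of the 9476 of HepG2 anti-HA and 1.48% of the 270 of Huh7 anti-HOXA13. At q of 0.05 or better stood 75.2% of decoy intervals for HepG2 anti-HA (51.2% on the chromosomes), 62.6% for HepG2 anti-HOXA13 (10.3%), 50.9% for Huh7 anti-HA (6.68%) and 15.6% for Huh7 anti-HOXA13 (9.31%). Without raised input the strong share on the decoy was 8.49% for HepG2 anti-HA, 10.4% for HepG2 anti-HOXA13, 0% (95% interval up to 1.56%) for Huh7 anti-HA and 0.909% for Huh7 anti-HOXA13. Within the classes of expected pileup described below, the order turned for HepG2 anti-HA up to 10 times background. Its strong shares at up to 1.5, 1.5 to 3 and 3 to 10 times were 3.11%, 12.6% and 33.0% on the decoy. On the chromosomes they were 8.70%, 35.6% and 37.4%. For HepG2 anti-HOXA13 the first 2 classes had 3.91% and 18.7% on the decoy against 0.0585% and 0.782%. Huh7 anti-HA had 0 of 140 and 0 of 94 on the decoy against 0.106% and 0.419%.

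Within classes of equal expected pileup, fold on the decoy was near that on the chromosomes in the Huh7 lists and higher in the lower 3 classes of HepG2 anti-HOXA13. The classes were up to 1.5, 1.5 to 3, 3 to 10 and over 10 times background. The median fold of Huh7 anti-HA was 2.77, 2.36, 2.03 and 1.56 on the decoy in that order of classes, against 2.70, 2.39, 2.04 and 1.56 on the chromosomes. Huh7 anti-HOXA13 had 3.08, 2.51, 2.04 and 1.55 on the decoy against 2.86, 2.47, 2.05 and 1.60 on the chromosomes. For HepG2 anti-HA the medians were 3.04, 2.81, 2.49 and 2.02 on the decoy against 2.81, 3.08, 2.59 and 1.998 on the chromosomes.

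HepG2 anti-HOXA13 had medians of 3.26, 3.31, 3.36 and 2.43 on the decoy against 2.90, 2.48, 2.43 and 2.38 on the chromosomes, so its decoy fold stayed level over the lower 3 classes where the chromosome fold was smaller in the classes of more input. In the class of 3 to 10 times background, 54.5% of its 2467 decoy intervals were strong, against 13.2% of 888 on the chromosomes; over 10 times, the shares were 84.0% on the decoy and 78.4% on the chromosomes. The class comparison of fold was chosen after the data were seen.

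**Figure D1:**
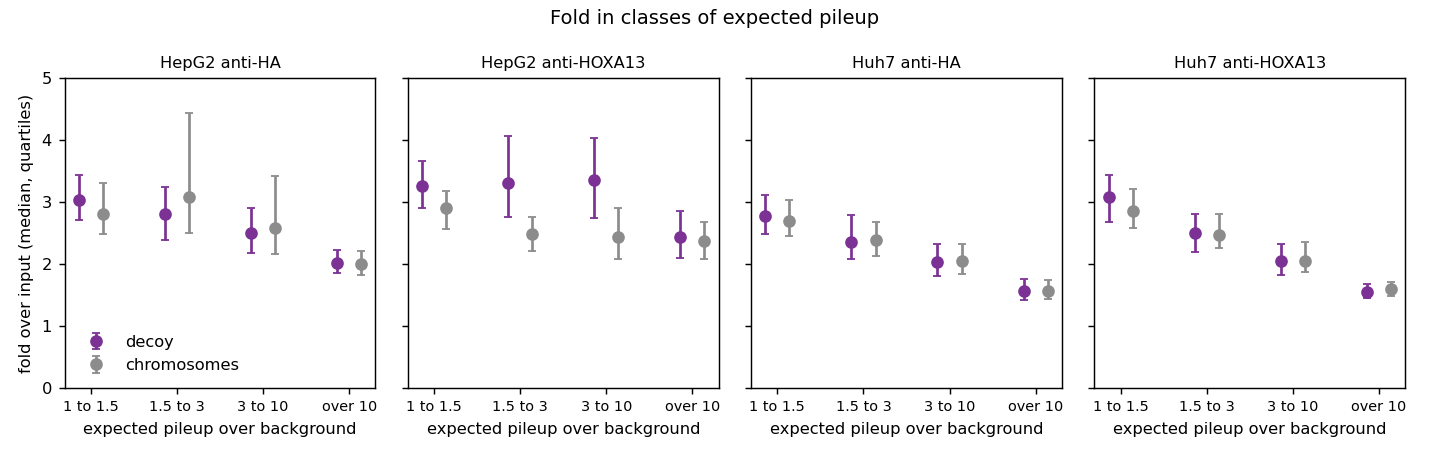
Median fold over input (points) with quartiles (bars) of decoy and chromosome intervals in 4 classes of expected pileup, for each list. The quartile ranges of decoy and chromosomes overlap in the Huh7 panels in all 4 classes, and in HepG2 anti-HOXA13 the decoy median of 3.36 in the class of 3 to 10 times background stands above the chromosome median of 2.43.

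The ChIP pileup on the decoy ran up to a limit in 3 lists. The highest pileup was 270 for HepG2 anti-HA, 206 for HepG2 anti-HOXA13 and 228 for Huh7 anti-HA, in each case exactly 2 times the shortest interval of the list, which is the most that 1 read per position and strand can give where the shortest interval is the fragment length. In Huh7 anti-HOXA13 the highest was 157.5, below the 199.7 that the same reckoning gives. At 90% of the limit or more stood 116 decoy intervals (2.20%) for HepG2 anti-HA, 135 (1.37%) for HepG2 anti-HOXA13, 196 (16.1%) for Huh7 anti-HA and 0 for Huh7 anti-HOXA13. Their median fold was 1.93 for HepG2 anti-HA, 2.07 for HepG2 anti-HOXA13 and 1.43 for Huh7 anti-HA. The expected pileup reached at most 145.6 for HepG2 anti-HA, 108.1 for HepG2 anti-HOXA13 and 177.0 for Huh7 anti-HA, and a summit at both maxima has a fold of 1.85, 1.90 and 1.29 in that order. At the limit, fold can be no higher than the expected pileup allows.

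Over all classes of input, decoy intervals were wider than chromosome intervals in both HepG2 lists and Huh7 anti-HA, and not in Huh7 anti-HOXA13. The median width was 230 bp on the decoy against 196 bp on the chromosomes for HepG2 anti-HA, 197 against 130 bp for HepG2 anti-HOXA13, 171 against 148 bp for Huh7 anti-HA and 151 against 158 bp for Huh7 anti-HOXA13. Within the classes of expected pileup, from low to high, HepG2 anti-HA had 177, 211, 257 and 283 bp against 172, 234, 247 and 294 bp. HepG2 anti-HOXA13 had 155, 199, 272 and 274.5 bp against 127, 146, 170 and 267 bp. Huh7 anti-HA had 134.5, 145, 153.5 and 190.5 bp against 140, 160, 188 and 186 bp. At least 500 bp wide were 545 decoy intervals (10.3%) for HepG2 anti-HA, 1201 (12.2%) for HepG2 anti-HOXA13, 33 (2.71%) for Huh7 anti-HA and 0 for Huh7 anti-HOXA13, which allows up to 1.17%, whereas the chromosome shares were 4.81%, 0.454%, 0.889% and 1.17% in the same list order. The widest decoy interval, 28714618 to 28720602 in HepG2 anti-HOXA13, measured 5985 bp at 3.66-fold. It spanned 3 HepG2 anti-HA intervals, up to 2581 bp wide and up to 2.67-fold, a Huh7 anti-HA interval of 231 bp at 1.62-fold and a Huh7 anti-HOXA13 interval of 132 bp at 1.78-fold. The widest of Huh7 anti-HA, 4401080 to 4403125 with 2046 bp at 1.496-fold, lay in the longest cluster and met a HepG2 anti-HA interval of 2042 bp at 1.77-fold and a HepG2 anti-HOXA13 interval of 2074 bp at 2.22-fold.

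Lists that shared few intervals on the chromosomes shared many on the decoy. Overlap was counted from 1 bp. In HepG2, 4478 of 5272 anti-HA decoy intervals (84.9%, 83.9 to 85.9%) overlapped an anti-HOXA13 interval, against 4.95% on the chromosomes, and in the reverse direction 4238 of 9857 anti-HOXA13 decoy intervals (43.0%, 42.0 to 44.0%) overlapped an anti-HA interval, against 2.37%. In Huh7, 36 of 1218 anti-HA decoy intervals (2.96%, 2.08 to 4.07%) overlapped an anti-HOXA13 interval, against 0.639% on the chromosomes, and 36 of 256 anti-HOXA13 decoy intervals (14.1%, 10.1 to 18.9%) overlapped an anti-HA interval, against 1.77%.

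A larger share of each Huh7 list overlapped the longer HepG2 lists than the other Huh7 list. For anti-HA, 853 HepG2 decoy intervals (16.2%) overlapped a Huh7 interval, against 7.05% on the chromosomes, and 925 Huh7 decoy intervals (75.9%, 73.4 to 78.3%) overlapped a HepG2 interval, against 8.85%. For anti-HOXA13, 170 HepG2 decoy intervals (1.72%) overlapped a Huh7 interval, against 0.364% on the chromosomes, and 169 Huh7 decoy intervals (66.0%, 59.9 to 71.8%) overlapped a HepG2 interval, against 2.47%. Across line and antibody, 135 HepG2 anti-HA decoy intervals (2.56%) overlapped Huh7 anti-HOXA13, against 0.643%, and the same number of Huh7 anti-HOXA13 decoy intervals (52.7%) overlapped HepG2 anti-HA, against 2.16%. HepG2 anti-HOXA13 had 910 decoy intervals (9.23%) that overlapped Huh7 anti-HA, against 0.567%, and Huh7 anti-HA had 986 (80.95%) that overlapped HepG2 anti-HOXA13, against 1.53%.

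The other list also covered much more of the decoy than of the chromosomes. HepG2 anti-HA covered 4.31% of the decoy stretch, HepG2 anti-HOXA13 7.85%, Huh7 anti-HA 0.713% and Huh7 anti-HOXA13 0.122%, whereas they covered 0.268%, 0.351%, 0.158% and 0.0614% of the chromosomes. Divided by the share that the other list covers, overlap was not uniformly higher on the decoy. This quotient can be no higher than full overlap divided by the share covered. Its limit is therefore lower on the decoy and for the HepG2 lists, which cover more, so it cannot rank places or lists of unlike cover. This quotient was 10.8 on the decoy and 14.1 on the chromosomes for HepG2 anti-HA in HepG2 anti-HOXA13, and 17.6 on the decoy and 33.0 on the chromosomes for Huh7 anti-HA in HepG2 anti-HA. It was 8.41 on the decoy and 7.03 on the chromosomes for Huh7 anti-HOXA13 in HepG2 anti-HOXA13; it was 19.7 and 11.2 in that order for Huh7 anti-HOXA13 in Huh7 anti-HA. By this quotient the order of the Huh7 overlaps turned on the decoy: Huh7 anti-HA had 24.2 in Huh7 anti-HOXA13, above its 17.6 in HepG2 anti-HA and 10.3 in HepG2 anti-HOXA13, and the 19.7 of Huh7 anti-HOXA13 in Huh7 anti-HA stood above its 12.2 in HepG2 anti-HA. With each list held to its 256 best decoy intervals by q, overlap on the decoy was 34.0% for HepG2 anti-HA in HepG2 anti-HOXA13, 37.9% for Huh7 anti-HA in HepG2 anti-HA, 3.13% for Huh7 anti-HOXA13 in HepG2 anti-HOXA13, with 1.95% for Huh7 anti-HOXA13 in Huh7 anti-HA. Without raised input in either list these overlaps were 55.4%, 11.5%, 21.8% and 1.82% in the same order.

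In the 4 directions plotted by class of expected pileup, overlap on the decoy was more frequent where input was higher; it was not so for overlap with Huh7 anti-HOXA13. For Huh7 anti-HA in HepG2 anti-HA it was 7.86%, 26.6%, 66.0% and 95.1% on the decoy in the 4 classes of expected pileup, from low to high, against 3.18%, 15.1%, 29.6% and 66.9% on the chromosomes. For Huh7 anti-HOXA13 in HepG2 anti-HOXA13 the decoy shares were 26.7%, 42.0%, 85.9% and 100% against 1.84%, 2.17%, 6.64% and 19.5% on the chromosomes. In both pairs the decoy share was the higher in each class. The difference was wide in the lower 3 classes within HepG2, where anti-HA intervals overlapped anti-HOXA13 intervals at 52.5%, 83.4%, 94.3% and 95.1% on the decoy and at 4.09%, 2.75%, 5.59% and 78.5% on the chromosomes. Within Huh7, anti-HOXA13 intervals overlapped anti-HA intervals at 1.67%, 2%, 13.1% and 44.7% on the decoy against 1.40%, 2.02%, 2.85% and 7.79% on the chromosomes, so the lowest 2 classes differed by less than their binomial intervals. Counted the other way, HepG2 anti-HA intervals overlapped Huh7 anti-HA intervals less often on the decoy than on the chromosomes in the lower 3 classes, at 1.44%, 2.65% and 7.94% on the decoy against 2.01%, 8.26% and 19.8% on the chromosomes, and more often in the class over 10 times background, at 50.7% against 36.0%. Overlap with Huh7 anti-HOXA13 was lower on the decoy in the class over 10 than in the class of 3 to 10 times background, at 2.003% and 4.15% of the HepG2 anti-HA intervals, 2.07% and 3.85% of those of HepG2 anti-HOXA13, and 2.55% and 7.41% of those of Huh7 anti-HA. This class comparison too was chosen after the data were seen.

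How often strong intervals of the decoy were shared depended on the direction counted, as the lists held unlike numbers of them. Of the 1802 strong HepG2 anti-HA decoy intervals, 1577 (87.5%, 85.9 to 89.0%) overlapped a strong HepG2 anti-HOXA13 interval, whereas 294 of 7537 (3.90%, 3.47 to 4.36%) did so on the chromosomes. Of the 170 strong Huh7 anti-HA decoy intervals, 153 (90%, 84.5 to 94.1%) overlapped a strong one of HepG2 anti-HA, against 81 of 115 (70.4%, 61.2 to 78.6%) on the chromosomes. All 4 strong Huh7 anti-HOXA13 decoy intervals overlapped a strong HepG2 anti-HOXA13 interval. In the reverse directions, 1547 of 3144 strong HepG2 anti-HOXA13 decoy intervals (49.2%) overlapped a strong HepG2 anti-HA interval, against 50.6% on the chromosomes. A strong Huh7 anti-HA interval was met by 8.44% of the strong HepG2 anti-HA decoy intervals. For anti-HOXA13 a strong Huh7 interval was met by 0.127% of the strong HepG2 decoy intervals. The Huh7 lists held 170 and 4 strong decoy intervals, so few HepG2 intervals could meet one. Within Huh7, 0 of 170 strong anti-HA and 0 of 4 strong anti-HOXA13 decoy intervals overlapped a strong interval of the other list. The exact 95% intervals reach up to 2.15% and 60.2%.

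Where intervals of 2 lists overlapped between the lines, HepG2 had the higher fold in most pairs. Overlap itself keeps summits near each other, so their distances are given as a description only. The 4661 overlapping HepG2 pairs had summits a median of 28 bp apart and a median fold of 2.46 in anti-HA against 3.30 in anti-HOXA13, with anti-HA the higher in 16.7% of pairs. In the 928 anti-HA pairs the median distance was 19 bp and the median fold was 2.03 in HepG2 against 1.59 in Huh7, with HepG2 the higher in 90.7%. In the 170 anti-HOXA13 pairs these were 25 bp and 3.60 in HepG2 against 2.02 in Huh7, with HepG2 the higher in 88.8%. Expected pileup, which divides the fold, was lower in HepG2. Its median was 27.4 times background in HepG2 against 34.8 in Huh7 over the anti-HA pairs. Over the anti-HOXA13 pairs it was 4.56 against 5.38. What part of the fold difference goes with input or with the limit of the ChIP pileup was not tested. The 36 Huh7 pairs had summits a median of 15.5 bp apart and a median fold of 1.75 in anti-HA against 1.60 in anti-HOXA13.

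Across pairs, expected pileup was more alike between lists than fold was. Spearman's rho of the expected pileup was 0.94 over the HepG2 pairs, 0.86 over the anti-HA pairs, 0.73 over the anti-HOXA13 pairs and 0.97 over the Huh7 pairs. For fold it was 0.45, 0.46, 0.15 and 0.43 in the same order of pairs. The points of each correlation are intervals of the same 2 libraries, neighbours are not independent, and each fold contains its own expected pileup.

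Merged over the 4 lists, the decoy intervals formed 10735 regions. Most were found in few lists: 6509 (60.6%) in 1 list, 3312 (30.9%) in 2, 883 (8.23%) in 3 and 31 (0.289%) in 4. On the chromosomes 4 of 140874 regions were in all 4 lists. HepG2 anti-HOXA13 alone held 5487 of the decoy regions, the HepG2 lists together 3145, the HepG2 lists with Huh7 anti-HA 780, HepG2 anti-HA alone 755, Huh7 anti-HA alone 193, the HepG2 lists with Huh7 anti-HOXA13 98 and Huh7 anti-HOXA13 alone 74. The Huh7 lists together, without HepG2, held 2.

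The 31 decoy regions of all 4 lists had raised input nearly throughout, at 28 regions for HepG2 anti-HA, 29 for HepG2 anti-HOXA13, 28 for Huh7 anti-HA and 29 for Huh7 anti-HOXA13. Their median fold was 2.26 for HepG2 anti-HA, 3.20 for HepG2 anti-HOXA13, 1.76 for Huh7 anti-HA and 1.60 for Huh7 anti-HOXA13. Strong were 14 of them for HepG2 anti-HA, 25 for HepG2 anti-HOXA13, 2 for Huh7 anti-HA and 0 for Huh7 anti-HOXA13. By mean rank of fold the leading region was decoy 26839179 to 26839493, with 3.36-fold for HepG2 anti-HA, 6.56-fold for HepG2 anti-HOXA13, 2.25-fold for Huh7 anti-HA and 2.24-fold for Huh7 anti-HOXA13. Decoy 19584390 to 19584622 followed with 3.28, 4.48, 2.31 and 2.72-fold in that order. The third, 29466477 to 29467196, was without raised input in any list, with 3.02-fold for HepG2 anti-HA, 3.85-fold for HepG2 anti-HOXA13, 2.20-fold for Huh7 anti-HA and 2.05-fold for Huh7 anti-HOXA13, and it was strong in none.

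The intervals of highest fold stood on little input, and in HepG2 most of them overlapped an interval of the other antibody. The 10 highest per list were taken, and none of these 40 had raised input. In HepG2 anti-HA they ran from 5.48 to 6.33-fold and all 10 overlapped a HepG2 anti-HOXA13 interval, at 2.88 to 6.72-fold there. Over all HepG2 anti-HA decoy intervals the overlapping share was 84.9%, so all 10 is near that share. Decoy 34929405 to 34929805 led with 6.33-fold (4.25 to 9.11, the 95% Poisson interval of its pileup of 27), and stood at 3.84-fold in HepG2 anti-HOXA13. Next were 25762210 to 25762657, with 6.07-fold (4.11 to 8.69) against 3.70-fold in HepG2 anti-HOXA13, and 9804039 to 9804354, with 6.02-fold (4.41 to 8.04) against 6.72-fold. These Poisson intervals overlap, so the order of the leading intervals is not resolved at this depth.

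HepG2 anti-HOXA13 reached higher folds on the decoy than the other lists. Its 10 highest ran from 8.83 to 10.9-fold, and 9 of them overlapped a HepG2 anti-HA interval, at 1.97 to 4.61-fold there. Over all HepG2 anti-HOXA13 decoy intervals the overlapping share was 43.0%. All 10 were strong, and among the 3144 strong HepG2 anti-HOXA13 decoy intervals it was 81.7%, so 9 of 10 is near that share. Decoy 30676106 to 30676612 led with 10.9-fold (7.93 to 14.7) and stood at 1.97-fold in HepG2 anti-HA. Decoy 24139003 to 24140144 had 10.3-fold (7.60 to 13.6), against 2.72-fold in HepG2 anti-HA and a Huh7 anti-HA fold of 1.91. Decoy 22787924 to 22788224, with 9.99-fold (7.23 to 13.5), overlapped no interval of another list. None of the 10 overlapped a Huh7 anti-HOXA13 interval, which 1.72% of all HepG2 anti-HOXA13 decoy intervals did.

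Huh7 leaders were lower. The 10 highest of Huh7 anti-HA ran from 3.65 to 4.30-fold. Of these, 2 met a HepG2 anti-HA interval, 4 met one of HepG2 anti-HOXA13 and 0 met one of Huh7 anti-HOXA13. Over all Huh7 anti-HA decoy intervals the shares were 75.9%, 80.95% and 2.96% in that order. Most of those intervals had raised input, and these 10 had none. At up to 1.5 and at 1.5 to 3 times background, 7.86% and 26.6% met HepG2 anti-HA. For HepG2 anti-HOXA13 these shares were 15% and 41.5%, so the 10 stood near intervals of like input. Decoy 35462567 to 35462695 led with 4.30-fold (2.71 to 6.53) and stood at 2.06-fold in HepG2 anti-HA. Decoy 21644006 to 21644139 had 4.25-fold (2.73 to 6.33), against 6.03-fold in HepG2 anti-HOXA13, and 27488790 to 27488958 had 4.18-fold (2.45 to 6.72) with no interval in another list. None of the 10 was strong.

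In Huh7 anti-HOXA13 the 10 highest ran from 3.70 to 4.55-fold. Of these, 4 met a HepG2 anti-HA interval, 6 met one of HepG2 anti-HOXA13 and 0 met one of Huh7 anti-HA. Over all Huh7 anti-HOXA13 decoy intervals the shares were 52.7%, 66.0% and 14.1% in that order. These 10 were without raised input. At up to 1.5 and at 1.5 to 3 times background, 20% and 30% met HepG2 anti-HA. For HepG2 anti-HOXA13 these shares were 26.7% and 42.0%, and for Huh7 anti-HA 1.67% and 2%. Decoy 25685247 to 25685387 led with 4.55-fold (3.26 to 6.19) and was strong, and it stood at 3.06-fold in HepG2 anti-HA and at 5.51-fold in HepG2 anti-HOXA13. It was followed by 3 intervals of 4.34-fold (2.68 to 6.69) at 234039 to 234314, 31717507 to 31717688 and 35319253 to 35319384, each on 18 ChIP fragments over background input, of which the last stood at 4.92-fold in HepG2 anti-HOXA13 and the other two had no interval in another list.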

How the data were processed

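Each of the 4 deposited lists was an interval list of 1 ChIP library. Alignment with BWA and calling with MACS2 are named in the submitters' processing notes, with no versions or settings. GRCh38 is named there too, but the lists use the sequence names of GRCh37 with decoy; coordinates are given as GRCh37 with decoy, 1-based, and none was converted. Columns made by the authors were a fold (the ratio at the summit), −log10 p-values and −log10 q-values, and a score; the score and another whole number, the summit's distance from the start, were deposited per interval. The labels give 50 M reads (M for 1e6 reads) per sample; the lists hold no read totals.

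Members and lists of values were chosen with earlier results of these data known. Chromosome intervals are those on chromosomes 1 to 22, X and Y. ChIP and expected pileups at the summit were solved from fold and p with MACS2's published formulas, to 0.005 in −log10 p, for 99.9% or more of each list (in Huh7 anti-HOXA13 with the ChIP scaled by 0.812). Background was a pileup of 2.62 for HepG2 anti-HA, 1.73 for HepG2 anti-HOXA13, 2.61 for Huh7 anti-HA and 2.60 for Huh7 anti-HOXA13. Decoy length was taken from position 1 to the end of the last interval of any list. The intervals named were, per list, the 10 of highest fold, the 5 densest bins, up to 3 clusters and the widest, and regions of all 4 lists by mean rank of fold; of each set the text prints those it describes. A limit at 0 is 3 counts over the number of intervals. No fit across samples was made. The alternatives tried were q limits, limits of raised input, bin widths, gaps, overlap rules and equal list lengths. Scripts ran in Python 3.11.15 with scipy 1.17.1, pandas 2.3.3, numpy 2.4.6 and, for plots, matplotlib 3.10.9, and were tested on simulated data.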

Additional observations from a re-analysis of the deposited data

Results flagged for a closer look

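The antibodies ordered in opposite ways in the cell lines. The number of decoy intervals in anti-HA minus that in anti-HOXA13 was −4585 in HepG2 (5272 against 9857) and 962 in Huh7 (1218 against 256). With 1 library per condition the difference between the lines was not tested. The lists differ in length in the same directions on the chromosomes. The decoy share of the list, over all intervals, was higher with anti-HA than with anti-HOXA13 by 1.11 percentage points in HepG2 and 1.65 in Huh7, but this order turned in HepG2 at q of 0.05 (17.9 against 43.6%), at −log10 q of 5 (19.0 against 79.98%) and without raised input (6.65 against 7.72%), and in Huh7 without raised input (0.875 against 1.14%).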

How the results depend on the processing

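No paired analysis was possible because each condition has 1 library and no result comes from a test. Over 36 results and 116 alternative values, 16 stayed within the counting interval, 94 moved without a change of direction and 6 reversed; most of these results cannot be negative, and the reversed values all belong to the comparisons with a direction, whose alternatives were chosen after the data were seen. No alternative leaves out a replicate, and the causes of the shifts were not tested beyond what a setting does by construction. Values follow in the order HepG2 anti-HA, HepG2 anti-HOXA13, Huh7 anti-HA and Huh7 anti-HOXA13. At q of 0.05 the decoy share was 17.9, 43.6, 23.9 and 3.93%, the raised input share 70.6, 55.9, 95.3 and 67.5%, the share in the densest bins 43.3, 38.9, 60.0 and 100% (the last from 40 intervals over 36 bins), and in the first 3 lists the clustered share 38.8, 49.8 and 10.3%. The median fold there was 2.597, 3.62 and 2.83 and the median width 248, 248 and 142 bp in the lists other than Huh7 anti-HA. At −log10 q of 5 the decoy share was 19.0, 79.98, 55.9 and 1.48%. Without raised input it was 6.65, 7.72, 0.875 and 1.14%, the median fold 2.87, 3.29, 2.66 and 2.80, and the strong share 8.49, 10.4 and 0% in the first 3 lists. With the limit of raised input at 2 times background its share was 74.7, 52.0, 84.8 and 64.8%, and at 5 times 41.0, 25.3, 77.3 and 39.1%. With strong set at −log10 q of 3 its share was 50.3, 43.8, 29.1 and 5.86%, and at 10 it was 14.2, 15.4, 1.72 and 0%. The densest bins held 43.2, 34.3, 58.2 and 60.2% with bins of 50 kb and 30.3, 26.6, 29.97 and 27.7% with bins of 1 Mb. Clusters held 17.2, 28.0 and 7.31% in the first 3 lists with gaps up to 500 bp and 83.1, 88.4 and 43.3% with gaps up to 5 kb. The decoy share of anti-HA minus that of anti-HOXA13, 1.11 percentage points in HepG2 and 1.65 in Huh7, was −25.7 and 19.9 at q of 0.05, −60.96 and 54.4 at −log10 q of 5, and −1.07 and −0.267 without raised input, HepG2 before Huh7. The HepG2 over Huh7 ratio of counts on the decoy over that on the chromosomes, 1.84 with anti-HA and 2.48 with anti-HOXA13 as log2, was −0.54 and 4.34 at q of 0.05, −2.63 and 8.59 at −log10 q of 5 (from 4 intervals in Huh7 anti-HOXA13), and 3.02 and 2.87 without raised input, anti-HA before anti-HOXA13. Merging touching intervals moved none of the decoy shares or widths.

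Overlaps follow in the order HepG2 anti-HA in HepG2 anti-HOXA13, Huh7 anti-HA in HepG2 anti-HA, and Huh7 anti-HOXA13 in HepG2 anti-HOXA13, then Huh7 anti-HOXA13 in Huh7 anti-HA where it moved. They were 55.4, 45.3 and 26.95% with a reciprocal overlap of 50%, 64.6, 62.2 and 50.8% with summits within 100 bp, 83.8, 87.3, 72.5 and 5.00% at q of 0.05 in both lists, and 87.5, 90, 100 and 0% at −log10 q of 5 in both. With each list at its 256 best intervals they were 34.0, 37.9, 3.13 and 1.95%, and without raised input in both lists 55.4, 11.5, 21.8 and 1.82%. The Huh7 anti-HOXA13 values rest on 256 intervals; the lists hold no read totals, so a limit from depth was not measured.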
